A study of Xenopus tropicalis with 10 samples.

Results

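The genes described here encode proteins of the neuronal cytoskeleton and of the synaptic vesicle and its release machinery, followed through tail regeneration in *Xenopus tropicalis*, a frog whose tadpoles regrow an amputated tail. They were chosen by name, as 52 symbols known from neurons, with earlier results of these data known. Shares of all genes given beside their counts are thus a background and not an independent test. Of the 52 symbols, 35 had a row of that symbol among the 26550 genes of the deposited table. The other 17 symbols (SYT1, SYT2, SYT5, SYT11, VAMP2, SYN1, SYN2, SV2B, RIMS2, UNC13A, NRXN2, STMN3, MAP2, DCX, SCG3, VGF and SLC18A2) were not analysed here. Of the 35 genes, 33 had enough reads to be tested (10 or more normalised reads in 2 or more libraries).

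All samples were tail tissue of tadpoles labelled stage 40, also those taken 72 hours after amputation. No transgene, mutation or drug was named in the labels, and the 10 libraries formed 6 groups. Regenerating tails were taken at 6, 15, 24 and 72 hours post amputation (hpa), with 1 library each at 6 and 15 hpa and 2 each at 24 and 72 hpa. The study's design text speaks of duplicates at 6 time points, and the single libraries at 6 and 15 hpa were the deepest (128768239 and 121670034 gene reads). Whether they hold merged duplicates is not stated, so each was taken as 1 library whose spread is assumed. The 0 hpa group (2 libraries) was tissue next to the wound, cut off directly after the first amputation. The piece removed by the first amputation formed the whole tail group (2 libraries). Tadpoles at 72 hpa were also older than those at 0 hpa, and no uncut tails of that age formed a group, so time since amputation and age cannot be told apart. Nothing says that replicates came from separate animals, so the spread that the p-values rest on may be only technical.

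A nerve terminal stores transmitter in vesicles that dock at the active zone. Calcium entry triggers their fusion, which SNARE proteins on the vesicle (VAMP) and on the plasma membrane (SNAP25 and syntaxin) carry out under the control of synaptotagmins and complexins. Peptide transmitters travel in larger dense-core granules packed with granins and prohormone convertases. Neurofilaments, tubulins, stathmins and tau build the axon that connects the cell body to these terminals. In a tadpole tail such proteins are found in the spinal cord, in the motor axons that reach the segmented muscle and in sensory neurons of the trunk and tail.

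Values are normalised reads, that is, reads per gene divided by a scaling factor of the library. They can be compared between libraries for 1 gene, but not between genes, because gene length is not taken out. Gene reads per library ranged from 15966579 (72 hpa replicate 2) to 128768239 (6 hpa), so that 3 reads were worth between 0.852 and 7.29 normalised reads. Markers of the tissues of a tail were all present: skeletal muscle genes took between 0.278% and 1.71% of the reads of a library, epidermal genes between 1.81% and 4.22%, and notochord genes between 0.272% and 0.616% (the exact 95% counting intervals of these shares lay within 0.945% of each value). The muscle share differed between replicates, with 1.58% and 0.278% in the whole tail, 1.22% and 0.461% for 24 hpa, and 0.355% and 1.71% for 72 hpa. Counting intervals and floors here cover counting error only.

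Summed over the 35 neuronal genes, the share of reads stood at similar values in the whole tail and up to 6 hpa, lower at 15 and 24 hpa and lowest at 72 hpa. Whole tail libraries gave these genes 0.0968% and 0.0799% of their reads, 0 hpa libraries 0.0866% and 0.083%, and the 6 hpa library 0.0885%. Later on the share was 0.0717% for 15 hpa, 0.0501% and 0.0571% for 24 hpa, and 0.0329% and 0.0257% for 72 hpa. The exact 95% interval of the smallest share was 0.0249% to 0.0265%. The 72 hpa libraries thus lay below all 8 others and overlapped no other group. SLC18A1, which need not come from neurons, alone took 0.0167% and 0.0173% of the reads of the 0 hpa libraries. In the 72 hpa libraries it took 0.00255% and 0.00197%. In whole tissue, fewer neurons and less of these RNAs per neuron cannot be told apart.

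Gene by gene, the median of the 33 tested genes on the log2(normalised reads + 1) scale, set against the mean of 0 hpa, came to 0.16 and -0.22 for the whole tail and 0.09 for 6 hpa. It was -0.60 for 15 hpa, -0.89 and -1.14 for 24 hpa, and -1.54 and -1.73 for 72 hpa, while the median over all 17896 genes tested stayed between -0.02 and 0.02 in every library. The lowest group mean was at 72 hpa for 24 of the 33 genes (72.7%), against 21.2% of all genes tested. At 72 hpa 24 of the 33 lay below every whole tail and 0 hpa library, against a background of 19% of all genes tested. The authors' deposited table flags 27 of the 35 genes as changed, by a test that is not stated. The flag covers 19.2% of all genes in the table, and a background of 28.4% of the genes tested here. The authors' cluster C4 holds 11 of the 35 (2.02% of all genes in the table), C2 4 (0.554%), C1 2 (0.942%) and C7 1 (1.14%). The other 17 are in no cluster, as are 90.5% of all genes in the table.

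**Figure D1:**
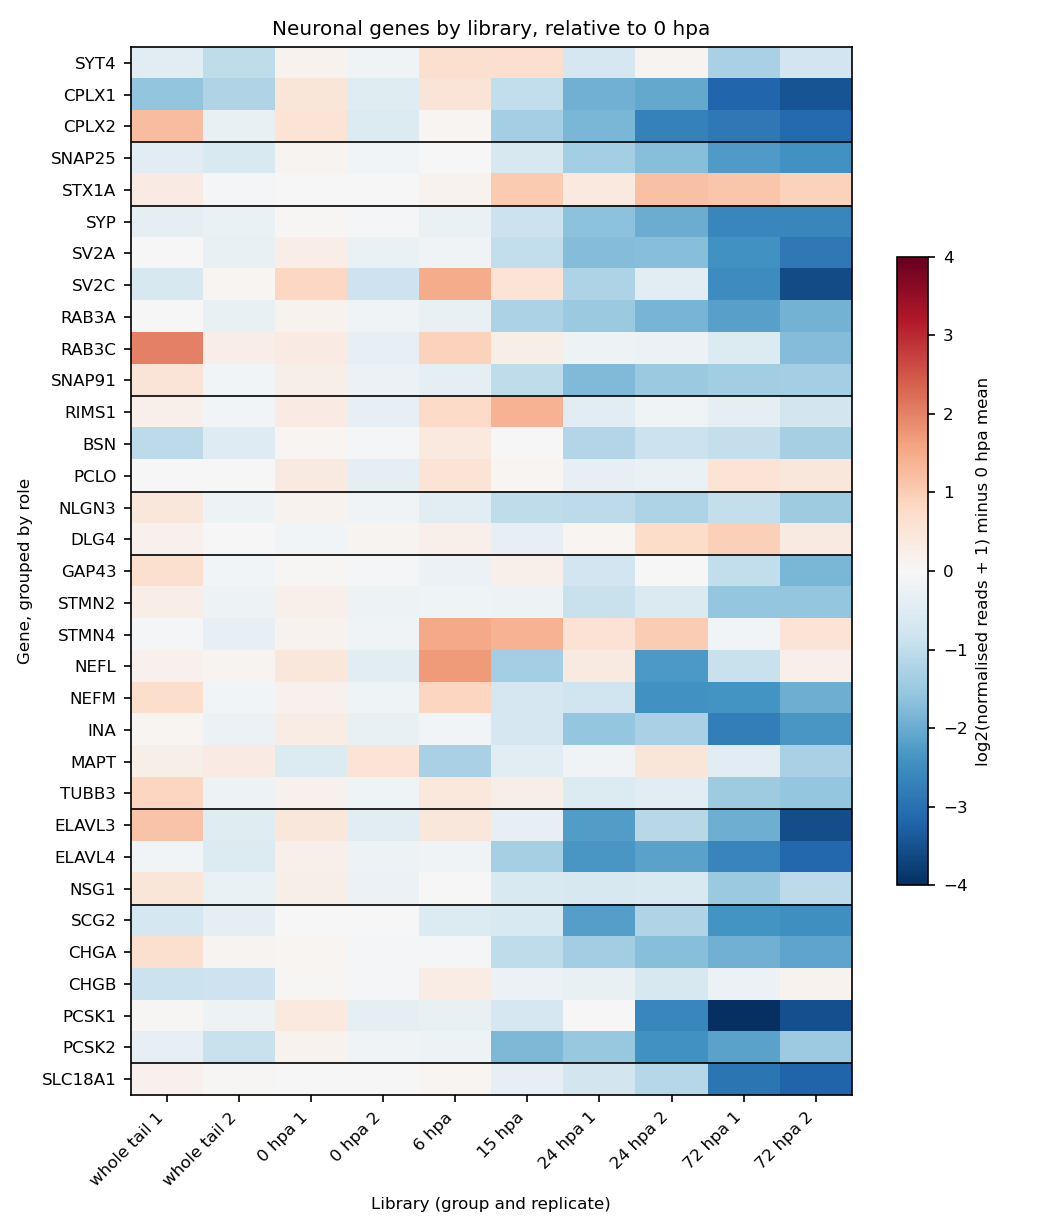
Each row is 1 of the 33 tested genes and each column 1 library; colour gives log2(normalised reads + 1) minus the mean of the 0 hpa libraries (blue lower, red higher, colours saturate at 4 units either way), and black lines separate roles. The lowest group mean is at 72 hpa for 24 of the 33 genes, while STX1A is red in the 15, 24 and 72 hpa columns.

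Among the regulators of vesicle fusion, CPLX1 encodes complexin 1, which clamps and then promotes SNARE-driven fusion. It had 225 and 288 normalised reads in the whole tail libraries, 937 and 480 in the 0 hpa libraries, 965 in the 6 hpa library, 336 in the 15 hpa library, 178 and 162 in the 24 hpa libraries, and 73.6 and 60.8 in the 72 hpa libraries. The 0 and 6 hpa libraries stood above the whole tail, and both 72 hpa libraries lay below all others. CPLX2, a second complexin, had 1094 and 385 in the whole tail, 682 and 322 in the 0 hpa libraries, 498 in the 6 hpa library, 182 in the 15 hpa library, 131 and 70.8 in the 24 hpa libraries, and 63.1 and 53.5 in the 72 hpa libraries. Here whole tail replicate 1 was the highest library, and the replicates of the whole tail and of 0 hpa each differed widely. SYT4, a synaptotagmin found on vesicles and dense-core granules, took another course: 165 and 109 in the whole tail, 244 and 198 in the 0 hpa libraries, 341 in the 6 hpa library, 350 in the 15 hpa library, 137 and 237 in the 24 hpa libraries, and 88.4 and 129 in the 72 hpa libraries. Its highest libraries were the single ones at 6 and 15 hpa.

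The SNARE genes had unlike courses. SNAP25, a plasma membrane SNARE of nerve terminals, had 1071 and 951 normalised reads in the whole tail, 1593 and 1341 in the 0 hpa libraries, 1488 in the 6 hpa library, 938 in the 15 hpa library, 568 and 450 in the 24 hpa libraries, and 306 and 272 in the 72 hpa libraries. From 15 hpa each later group lay below the one before it, without overlap. STX1A, the syntaxin that pairs with SNAP25 in the SNARE complex, had 1184 and 885 in the whole tail, 927 and 951 in the 0 hpa libraries, 1035 in the 6 hpa library, 1921 in the 15 hpa library, 1240 and 2121 in the 24 hpa libraries, and 2045 and 1794 in the 72 hpa libraries. All libraries from 15 hpa on were above all earlier ones. VAMP1, a vesicle SNARE, stayed below the limit for testing, with 0 to 11 reads in a library.

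The genes of the vesicle membrane and vesicle cycle included SYP, SV2A, RAB3A and SNAP91. SYP (synaptophysin, an abundant vesicle membrane protein) had 1495 and 1628 normalised reads in the whole tail, 2037 and 1904 in the 0 hpa libraries, 1644 in the 6 hpa library, 1092 in the 15 hpa library, 635 and 502 in the 24 hpa libraries, and 324 and 318 in the 72 hpa libraries. SV2A, a vesicle glycoprotein, had 689 and 554 in the whole tail, 823 and 564 in the 0 hpa libraries, 616 in the 6 hpa library, 346 in the 15 hpa library, 204 and 207 in the 24 hpa libraries, and 126 and 92.4 in the 72 hpa libraries. In both genes the order 15, 24 and 72 hpa ran downwards with no overlap between groups. RAB3A, a small GTPase that tethers vesicles, had 915 and 749 in the whole tail, 1008 and 835 in the 0 hpa libraries, 746 in the 6 hpa library, 381 in the 15 hpa library, 324 and 253 in the 24 hpa libraries, and 202 and 245 in the 72 hpa libraries. SNAP91, a clathrin adaptor for vesicle retrieval, had 842 and 544 in the whole tail, 691 and 493 in the 0 hpa libraries, 459 in the 6 hpa library and 286 in the 15 hpa library. It then stayed level, at 170 and 209 in the 24 hpa libraries and 222 and 226 in the 72 hpa libraries.

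The remaining vesicle genes were scarce. SV2C, a paralogue of SV2A, was counted with 10 and 1 reads in the 72 hpa libraries, against 38 and 12 in the 0 hpa libraries, and its highest value was 112 normalised reads in the 6 hpa library. RAB3C, related to RAB3A, had 144 normalised reads in whole tail replicate 1 and between 9.72 and 66.7 in the other 9 libraries, so 1 library set its whole tail mean.

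**Figure D2:**
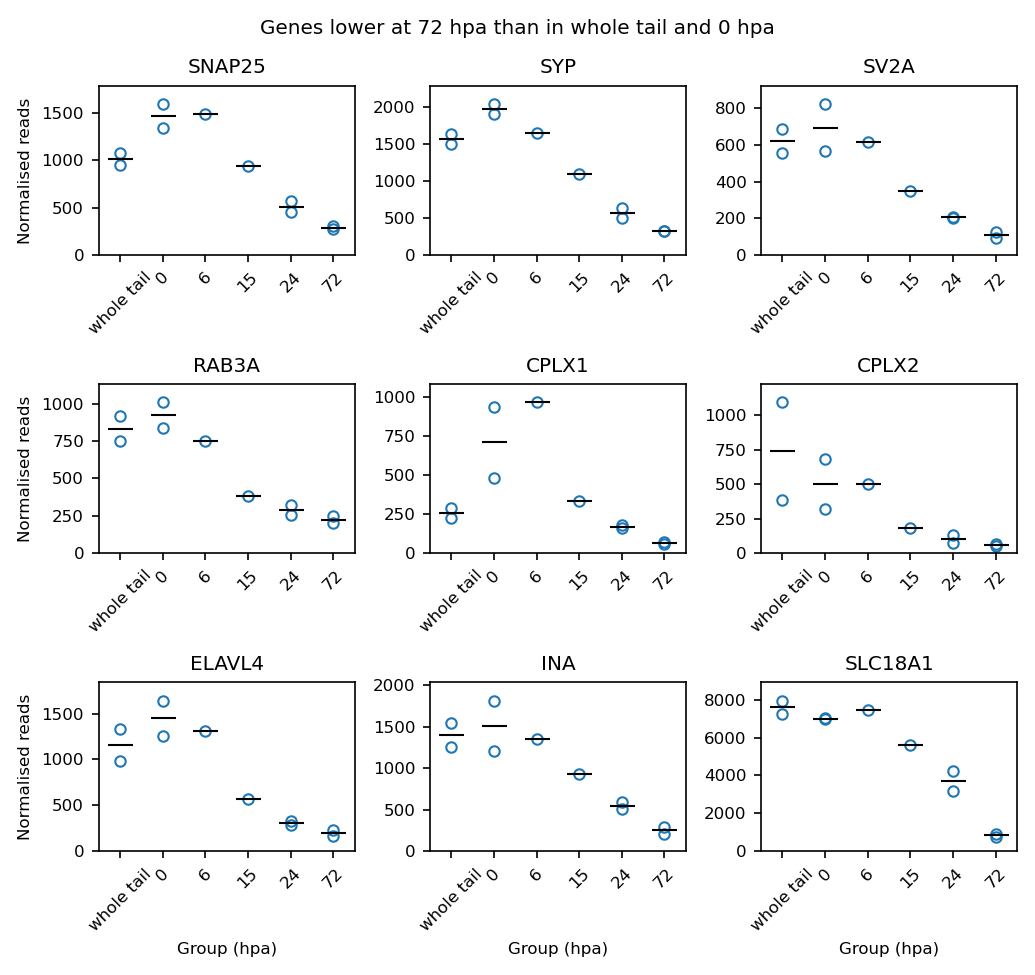
Normalised reads (linear axes from 0) of 9 genes in the whole tail group and at 0, 6, 15, 24 and 72 hpa; circles are libraries and dashes are group means, with 1 library each at 6 and 15 hpa. In each of the 9 panels both 72 hpa circles lie below all whole tail and 0 hpa circles; SLC18A1, for example, is at 923 and 763 at 72 hpa.

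Active zone genes shared no course. PCLO (piccolo), a large scaffold, had 156 and 151 normalised reads in the whole tail, 199 and 119 in the 0 hpa libraries, 226 in the 6 hpa library, 164 in the 15 hpa library, 123 and 127 in the 24 hpa libraries, and 227 and 209 in the 72 hpa libraries. It was thus as high at 72 hpa as in the 6 hpa library, with no overlap between 72 and 24 hpa. BSN (bassoon, its partner scaffold) had 109 and 159 in the whole tail, 238 and 216 in the 0 hpa libraries, 295 in the 6 hpa library, 224 in the 15 hpa library, 99.8 and 124 in the 24 hpa libraries, and 117 and 89.9 in the 72 hpa libraries, so that its late values overlapped the whole tail. RIMS1, which links vesicles to calcium channels, peaked in the single libraries at 6 hpa (126) and 15 hpa (196) and otherwise lay between 43.7 and 91.8.

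Among synaptic adhesion and postsynaptic genes, NLGN3, a neuroligin that binds presynaptic neurexins, had 742 and 472 normalised reads in the whole tail, 598 and 493 in the 0 hpa libraries, 399 in the 6 hpa library, 269 in the 15 hpa library, 264 and 229 in the 24 hpa libraries, and 278 and 204 in the 72 hpa libraries. Its low level was reached by 15 hpa and kept. DLG4 (the scaffold PSD-95) had 63.1 and 41.3 in the 72 hpa libraries, above the 30 and 34.8 in the 0 hpa libraries. These values stood for 102 and 17 reads at 72 hpa and 16 and 19 at 0 hpa, and no comparison called the gene. NLGN1 stayed below the limit for testing, with 0 to 8 reads in a library.

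Axon and cytoskeleton genes had unlike courses. INA (internexin alpha, a neurofilament subunit) had 1545 and 1263 normalised reads in the whole tail, 1817 and 1204 in the 0 hpa libraries, 1358 in the 6 hpa library, 930 in the 15 hpa library, 505 and 598 in the 24 hpa libraries, and 215 and 297 in the 72 hpa libraries. NEFM, the medium neurofilament subunit, had 1368 and 775 in the whole tail, 961 and 742 in the 0 hpa libraries, 1549 in the 6 hpa library, 526 in the 15 hpa library, 490 and 158 in the 24 hpa libraries, and 160 and 219 in the 72 hpa libraries. Both 72 hpa libraries were under all whole tail and 0 hpa libraries for the 2 genes, but the 24 hpa replicates of NEFM stood wide apart. NEFL, the light subunit, had 323 normalised reads in the 6 hpa library and 37.3 in the 15 hpa library, and its 24 hpa replicates were at 126 and 19.2. Its 72 hpa values of 52.6 and 112 overlapped those in the 0 hpa libraries, 133 and 71.5.

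STMN2, a stathmin that destabilises microtubules in growing axons, had 2403 and 1750 normalised reads in the whole tail, 2321 and 1715 in the 0 hpa libraries, 1788 in the 6 hpa library, 1729 in the 15 hpa library, 1076 and 1322 in the 24 hpa libraries, and 687 and 676 in the 72 hpa libraries. TUBB3, the neuronal beta tubulin, had 2864 and 1353 in the whole tail, 1759 and 1402 in the 0 hpa libraries, 2097 in the 6 hpa library, 1866 in the 15 hpa library, 1069 and 1141 in the 24 hpa libraries, and 586 and 537 in the 72 hpa libraries. For both, 15 hpa was still within or above the 0 hpa libraries. Tubulin genes are alike in coding sequence, and the sources used here do not state how reads matching several genes were counted, so TUBB3 values are less certain.

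GAP43, a growth cone protein, had 1230 and 723 normalised reads in the whole tail, 813 and 753 in the 0 hpa libraries, 667 in the 6 hpa library, 900 in the 15 hpa library, 461 and 783 in the 24 hpa libraries, and 396 and 219 in the 72 hpa libraries. STMN4, another stathmin, had 41.7 and 35.3 in the whole tail, 48.7 and 40.3 in the 0 hpa libraries, 129 in the 6 hpa library, 118 in the 15 hpa library, 67 and 90.1 in the 24 hpa libraries, and 40.8 and 65.6 in the 72 hpa libraries, with its peak in the single libraries. MAPT (tau), which binds axonal microtubules, had replicates far apart, with 2812 and 5980 in the 0 hpa libraries and 3069 and 1675 in the 72 hpa libraries, which overlapped.

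Of the neuronal RNA-binding proteins, ELAVL4 (HuD) had 1330 and 978 normalised reads in the whole tail, 1641 and 1253 in the 0 hpa libraries, 1307 in the 6 hpa library, 574 in the 15 hpa library, 286 and 325 in the 24 hpa libraries, and 229 and 163 in the 72 hpa libraries. ELAVL3 (HuC), a marker of young neurons, had 638 and 210 in the whole tail, 397 and 214 in the 0 hpa libraries, 400 in the 6 hpa library, 232 in the 15 hpa library, 61.5 and 133 in the 24 hpa libraries, and 74.2 and 24.3 in the 72 hpa libraries. ELAVL4 separated the groups from 15 hpa on, while ELAVL3 replicates lay far apart in every duplicated group. NSG1, a protein of neuronal endosomes, had 1346 and 794 in the whole tail, 1120 and 819 in the 0 hpa libraries, 960 in the 6 hpa library, 630 in the 15 hpa library, 614 and 624 in the 24 hpa libraries, and 341 and 459 in the 72 hpa libraries. It was lower at 72 hpa than in any other library.

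Granule genes were divided as well. SCG2 (secretogranin II, a granule matrix protein) had 1698 and 2146 normalised reads in the whole tail, 2777 and 2788 in the 0 hpa libraries, 1913 in the 6 hpa library, 1821 in the 15 hpa library, 603 and 1214 in the 24 hpa libraries, and 534 and 513 in the 72 hpa libraries. CHGA (chromogranin A) had 428 and 296 in the whole tail, 292 and 258 in the 0 hpa libraries, 264 in the 6 hpa library, 135 in the 15 hpa library, 104 and 84.1 in the 24 hpa libraries, and 72.3 and 63.2 in the 72 hpa libraries. CHGB (chromogranin B), by contrast, had 186 and 241 in the 72 hpa libraries, overlapping the 227 and 211 at 0 hpa and above the 121 and 122 of the whole tail.

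PCSK1 and PCSK2 encode convertases that cut prohormones inside granules. PCSK1 had 1332 and 1127 normalised reads in the whole tail, 1703 and 978 in the 0 hpa libraries, 1040 in the 6 hpa library, 809 in the 15 hpa library, 1299 and 209 in the 24 hpa libraries, and 56.9 and 112 in the 72 hpa libraries. The 24 hpa replicates thus stood on either side of the gap, one at the level of 0 hpa and the other nearer that of 72 hpa. PCSK2 had 91.8 and 61.1 in the whole tail, 127 and 103 in the 0 hpa libraries, 98.3 in the 6 hpa library, 31.9 in the 15 hpa library, 39.7 and 20.4 in the 24 hpa libraries, and 25.4 and 41.3 in the 72 hpa libraries. All its libraries from 15 hpa on were below all earlier ones.

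SLC18A1, the vesicular monoamine transporter that loads serotonin and catecholamines, had 7949 and 7247 normalised reads in the whole tail, 6981 and 7022 in the 0 hpa libraries, 7458 in the 6 hpa library, 5617 in the 15 hpa library, 4227 and 3178 in the 24 hpa libraries, and 923 and 763 in the 72 hpa libraries. Its replicates lay close together at 0 hpa and further apart at 24 hpa, and 72 hpa did not overlap 24 hpa. Small secretory cells of the tadpole epidermis also hold serotonin, so this transporter need not come from neurons; the cells that expressed it were not tested.

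**Figure D3:**
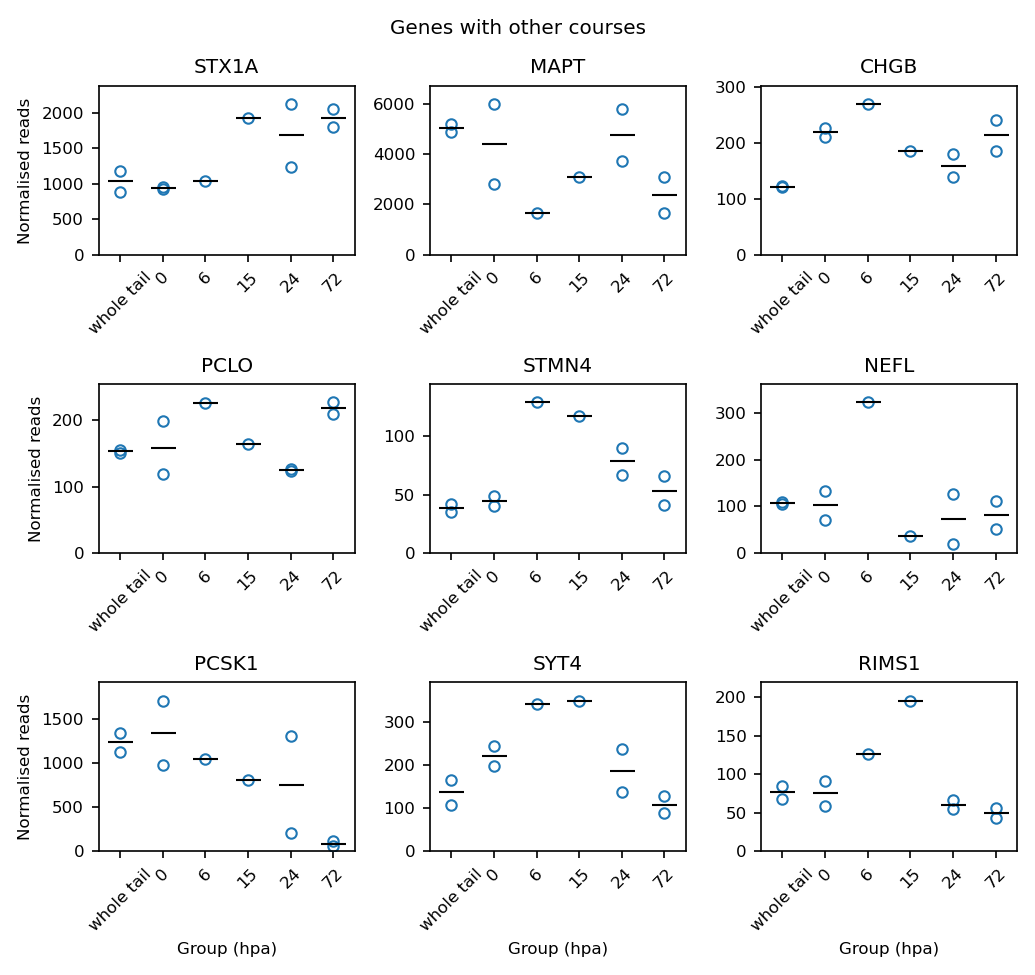
Normalised reads (linear axes from 0) of 9 genes by group; circles are libraries and dashes are group means, with 1 library each at 6 and 15 hpa. STX1A is higher from 15 hpa on (1921 at 15 hpa), SYT4, STMN4 and RIMS1 are highest at 6 or 15 hpa, and the 24 hpa replicates of PCSK1 stand apart (1299 and 209).

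Tests were made in a single limma fit over all 10 libraries on log2(normalised reads + 1), and a gene was called at a Benjamini-Hochberg adjusted p under 0.05 over all 17896 genes tested. Fold changes are on that scale and understate the change of scarce genes. The comparisons with 0 hpa share the 0 hpa libraries, and those with the whole tail share the whole tail libraries.

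Setting 0 hpa against the whole tail asks how wound-side tissue differed from the removed tail, and none of these genes was called. The 33 genes had a median log2 fold change of -0.04, with values on either side of 0. limma called 0 of the 33 (0% of all genes were called either way), 4 had an unadjusted p under 0.05, all higher (4.16% of all genes tested), and edgeR called 0 (background 0%). DESeq2, which called 1.19% of all genes higher, called CPLX1 higher, whose 937 and 480 normalised reads at 0 hpa stood against 225 and 288 in the whole tail (limma log2 fold change 1.39, SE 0.362, adjusted p = 0.36). Without whole tail replicate 1 the median was 0.215, without whole tail replicate 2 or 0 hpa replicate 1 it was below 0 (lowest -0.215), and without 0 hpa replicate 2 it was 0.284, so its sign rested on single libraries.

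At 6 hpa the genes stood close to 0 hpa, with a median of 0.09 against 0.01 for all genes tested. limma called 0 of the 33 (background 0%), as did edgeR (background 0%) and DESeq2 (background 0.872% either way). An unadjusted p under 0.05 was found for 2 of the 33, close to the 5.83% of all genes tested. These were STMN4 (1.52, SE 0.515, limma adjusted p = 0.76) and MAPT (-1.29, SE 0.514, limma adjusted p = 0.85). Above both 0 hpa libraries lay 16 of the 33 genes and below both 8, against 35.0% and 34.8% of all genes tested. The widest difference upwards was that of NEFL (1.72, SE 1.02, limma adjusted p = 0.91).

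At 15 hpa the median was -0.60 against -0.02 for all genes tested, and 20 of the 33 lay below both 0 hpa libraries, against 38.4% of all genes tested. limma nevertheless called 0 of the 33 (0.229% of all genes were called higher and 0.134% lower). An unadjusted p under 0.05 was found for 9 of the 33 at lower and 3 at higher values, against 6.47% and 7% of all genes tested. edgeR called 0 (0.302% of all genes either way), and DESeq2 called RAB3A and ELAVL4 lower (2.39% of all genes). In the limma fit RAB3A stood at -1.27 (SE 0.307, adjusted p = 0.15) and ELAVL4 at -1.32 (SE 0.336, adjusted p = 0.17). PCSK2 had the lowest value (-1.81, SE 0.615, limma adjusted p = 0.27). STX1A (1.03), RIMS1 (1.40) and STMN4 (1.39) were the 3 at higher values, with limma adjusted p between 0.26 and 0.3. Without 0 hpa replicate 1 the median was -0.378.

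By 24 hpa 5 genes of vesicle release and neuronal RNA binding had fallen against 0 hpa, and none had risen. They were ELAVL4 (log2 fold change -2.23, SE 0.275, limma adjusted p = 0.024), SYP (-1.80, SE 0.194, limma adjusted p = 0.019), SV2A (-1.73, SE 0.294, limma adjusted p = 0.049), RAB3A (-1.68, SE 0.251, limma adjusted p = 0.037) and SNAP25 (-1.53, SE 0.215, limma adjusted p = 0.031). That is 5 of 33, against 0.302% of all genes called lower and 0.665% higher. The median of the 33 was -1.02, with 29 at lower values (50.5% of all genes tested), and 21 lay wholly below 0 hpa against 25.8% of all genes tested. CPLX2 (-2.27, SE 0.584, limma adjusted p = 0.13) had a larger difference and a larger error. STMN4 (0.80) and STX1A (0.79) were wholly above 0 hpa but did not pass (limma adjusted p = 0.39 and 0.23).

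The 5 calls at 24 hpa did not hold in every fit that left out 1 replicate. RAB3A and SV2A lost their calls in each of these fits, also in those without a whole tail or 72 hpa replicate. SYP, ELAVL4 and SNAP25 lost theirs when any 1 of the 0 hpa or 24 hpa replicates was left out. Log2 fold changes lay between -2.42 and -1.36 throughout, and the share of all genes called in these fits is not given here. Without the low-value filter 1 remained (0.0870% of all genes lower), and DESeq2 called 14 lower (3.55% of all genes).

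The 24 hpa libraries, shared with the comparison above, were also set against the whole tail. limma called 5 of 33 lower and 0 higher (0.313% and 0.793% of all genes), namely SYP (-1.47, SE 0.194), ELAVL4 (-1.90, SE 0.275), RAB3A (-1.53, SE 0.251), SNAP91 (-1.84, SE 0.306) and CHGA (-1.92, SE 0.319), with limma adjusted p between 0.025 and 0.042. The median of the 33 was -1.05. Of these 5, SYP and ELAVL4 kept their calls without either 72 hpa replicate. No call held when any 1 of the whole tail, 0 hpa or 24 hpa replicates was left out. Here too the share of all genes called in the fits without 1 replicate is not given. Without the low-value filter 1 was called (0.0662% of all genes lower), and with DESeq2 14 (3.56%).

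At 72 hpa 7 of the 9 roles held at least 1 gene that had fallen against 0 hpa. Roles were small: calls were 1 of 1 tested monoamine transporter, 1 of 2 SNARE genes and 1 of 3 RNA-binding and endosomal genes. The 2 roles without a call had 3 and 2 tested genes. limma called 15 of the 33 lower and 0 higher, against 3.53% of all genes lower and 2.87% higher. The median of the 33 was -1.55 (0.02 over all genes tested), with 29 at lower values (48.5% of all genes tested) and 26 wholly below 0 hpa (26.6% of all genes tested). Among the fusion regulators CPLX1 fell by 3.31 (SE 0.362, limma adjusted p = 0.0071) and CPLX2 by 2.99 (SE 0.584, limma adjusted p = 0.031). Of the vesicle proteins SV2A fell by 2.65 (SE 0.294), SYP by 2.61 (SE 0.194), RAB3A by 2.04 (SE 0.251) and SNAP91 by 1.38 (SE 0.306), with limma adjusted p between 0.0027 and 0.042. SNAP25 fell by 2.34 (SE 0.215, limma adjusted p = 0.0046).

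The cytoskeleton gene INA fell by 2.55 (SE 0.278, limma adjusted p = 0.0071), STMN2 by 1.55 (SE 0.238, limma adjusted p = 0.018) and TUBB3 by 1.48 (SE 0.333, limma adjusted p = 0.044). ELAVL4 fell by 2.89 (SE 0.275, limma adjusted p = 0.0046). In granules, PCSK1 fell by 4.0 (SE 0.774, limma adjusted p = 0.031), SCG2 by 2.41 (SE 0.316, limma adjusted p = 0.012) and CHGA by 2.01 (SE 0.319, limma adjusted p = 0.019). SLC18A1 fell by 3.06 (SE 0.196, limma adjusted p = 0.0022). No active zone, adhesion or postsynaptic gene passed; BSN had -1.14 (SE 0.332, limma adjusted p = 0.089) and NLGN3 -1.19 (SE 0.307, limma adjusted p = 0.066). STX1A, at 1.03 (SE 0.281, 95% interval 0.37 to 1.68, limma adjusted p = 0.075), did not pass limma, while DESeq2 called it higher (5.63% of all genes higher). TMM scaling left the 15 calls lower and 0 higher.

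Of the 15 genes that fell, 7 passed limma in every one of the 8 fits that left out 1 replicate: CPLX1, INA, SLC18A1, SNAP25, SV2A, SYP and ELAVL4 (adjusted p up to 0.046). RAB3A was lost without 0 hpa replicate 1 (adjusted p = 0.068). STMN2, CHGA and SCG2 were lost without either 0 hpa replicate or 72 hpa replicate 2 (up to 0.112), and CPLX2 also without 72 hpa replicate 1 (up to 0.176). PCSK1 was lost without any whole tail, 0 hpa or 72 hpa replicate, and SNAP91 and TUBB3 without any 0, 24 or 72 hpa replicate (up to 0.228). The count fell without 0 hpa replicate 1, 0 hpa replicate 2 or 72 hpa replicate 2, in fits whose share of all genes called is not given here. Without the low-value filter it was 9 (0.393% of all genes lower), and with DESeq2 23 (7.49%).

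**Figure D4:**
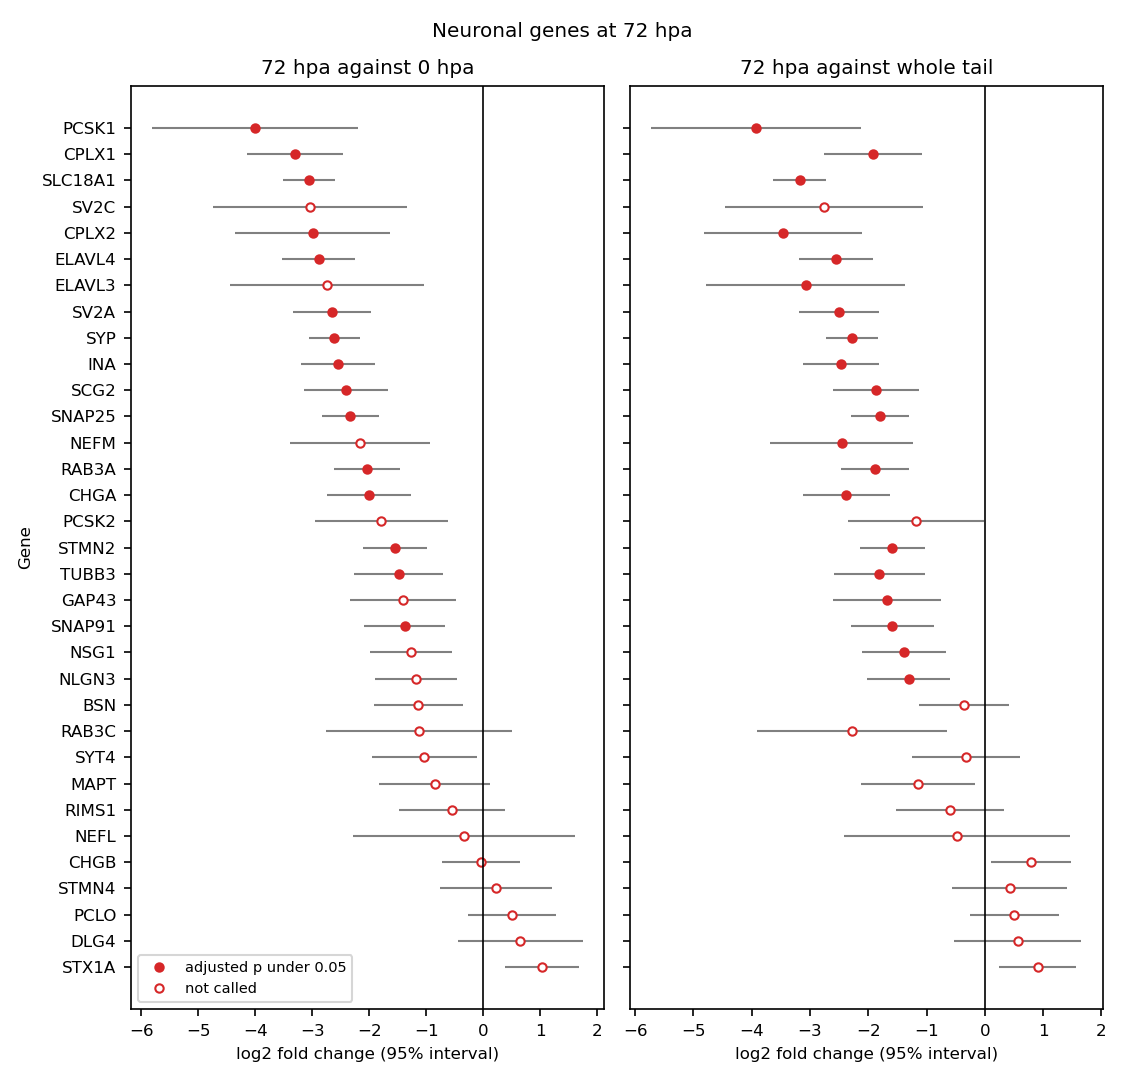
Log2 fold changes of the 33 tested genes at 72 hpa against 0 hpa (left) and against the whole tail (right), with 95% intervals from the limma fit; filled circles passed an adjusted p of 0.05. On the left 15 circles are filled and on the right 20, all left of 0; STX1A has the largest positive value in both panels (1.03 and 0.90).

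The same 72 hpa libraries were also set against the whole tail. limma called 20 of the 33 lower and 0 higher (4.68% and 4.61% of all genes), with a median of -1.80. SLC18A1 fell by 3.18 (SE 0.196), SYP fell by 2.28 (SE 0.194), SV2A fell by 2.51 (SE 0.294), SNAP25 fell by 1.80 (SE 0.215), INA fell by 2.46 (SE 0.278) and ELAVL4 fell by 2.56 (SE 0.275), each with limma adjusted p of 0.0061 or less. NEFM (-2.46, SE 0.527), ELAVL3 (-3.07, SE 0.731), GAP43 (-1.68, SE 0.4), NSG1 (-1.38, SE 0.309) and NLGN3 (-1.31, SE 0.307) passed here (limma adjusted p between 0.031 and 0.042), though against 0 hpa they had limma adjusted p between 0.054 and 0.083. CPLX1 fell by 1.91 (SE 0.362, limma adjusted p = 0.022).

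CHGA, CPLX2, PCSK1, RAB3A, SCG2, SNAP91, STMN2 and TUBB3 made up the remainder of the 20, with log2 fold changes between -3.92 and -1.59. STX1A (0.90, limma adjusted p = 0.086) and CHGB (0.80, limma adjusted p = 0.13) did not pass limma, and DESeq2 called 1 gene, STX1A, higher (8.67% of all genes). INA, SLC18A1, SNAP25, SV2A, SYP and ELAVL4 were called in each fit without 1 replicate. The count fell in each of the 8 fits without 1 replicate, again with no share of all genes given for those fits. Without the low-value filter it was 9 (1.07% of all genes lower). The other 14 of the 20 each lost their call in at least 1 of the 8 fits, with adjusted p up to 0.198.

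Between 24 and 72 hpa only SLC18A1 passed. It had 923 and 763 normalised reads at 72 hpa against 4227 and 3178 at 24 hpa (log2 fold change -2.13, SE 0.196, limma adjusted p = 0.025). limma thus called 1 of the 33 lower and 0 higher, against 0.0335% and 0.0391% of all genes tested. The median was -0.71, with 21 wholly below 24 hpa against 21.2% of all genes tested. PCSK1 had the largest negative value (-2.69, SE 0.774, limma adjusted p = 0.28) and PCLO the largest positive one without overlap (0.79, SE 0.33, limma adjusted p = 0.45). The SLC18A1 call was lost without whole tail replicate 2, either 0 hpa replicate, 24 hpa replicate 1 or 72 hpa replicate 2 (adjusted p between 0.05 and 0.112), and edgeR called 0 (0.0112% of all genes either way), while DESeq2 called 4 genes lower (1.68%).

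A limma F test of any difference among the 6 groups called 10 of the 33 (SLC18A1, SYP, ELAVL4, SNAP25, INA, SV2A, CPLX1, RAB3A, CHGA and SCG2), against 2.27% of all genes tested. The count fell when any 1 of the whole tail, 0 hpa or 72 hpa replicates was left out. How many of all genes those fits called is not given here, so the fall is not read as particular to these genes.

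Further genes of the same machinery were counted alongside. Of 112 further symbols, 82 were in the table and 77 were tested. At 72 hpa against 0 hpa limma called 15 of these 77 lower and 1 higher, against 3.53% and 2.87% of all genes tested, with a median of -0.60. Of 37 further vesicle and release genes 5 fell, among them CADPS, which primes dense-core granules (-2.35, SE 0.348), and DNM1, the dynamin of vesicle retrieval (-1.48, SE 0.239). Of 19 cytoskeleton genes 6 fell, with KIF5A, a kinesin motor of axons (-2.25, SE 0.356), first by p. ELAVL2, a relative of ELAVL3 and ELAVL4 (-3.09, SE 0.527), and CPE, a granule carboxypeptidase (-1.55, SE 0.27), were among 3 of 11 RNA-binding and granule genes. The genes named had limma adjusted p between 0.016 and 0.025. In the adhesion and scaffold list of 10, DLGAP1, a postsynaptic scaffold protein, rose (2.28, SE 0.353, limma adjusted p = 0.018). It had 26.2 and 27.5 normalised reads at 0 hpa, 59.4 and 67.8 in the whole tail and 141 already at 6 hpa. With 132 and 136 at 72 hpa, it was not called against the whole tail. In the same list SHANK1, named after its value was seen, fell (-2.16, SE 0.446, limma adjusted p = 0.035). Against the whole tail limma called 18 of the 77 lower and 0 higher, against 4.68% and 4.61% of all genes tested. Summed over the 82, reads did not fall in every list. Vesicle and release genes took 0.1515% and 0.1491% of reads at 0 hpa, and 0.151% and 0.1422% at 72 hpa. Cytoskeleton genes took 0.0867% and 0.0724%, then 0.0776% and 0.0746%. Adhesion and scaffold genes took 0.01297% and 0.0105%, then 0.01125% and 0.01055%. RNA-binding and granule genes were lower, with 0.0267% and 0.0256%, then 0.0182% and 0.0151%.

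Markers of neuron identity were also at lower values late. The 17 tested transmitter and transcription factor genes had a median, set against 0 hpa, of -0.96 and -1.25 in the 24 hpa libraries and -2.10 and -2.06 in the 72 hpa libraries. limma called 6 of them lower and 2 higher at 72 hpa against 0 hpa (3.53% and 2.87% of all genes tested, also the background of the marker counts that follow). Their share of reads was 0.00225% and 0.00237% at 72 hpa, against 0.00618% and 0.00498% at 0 hpa. Neural progenitor and glial genes had medians of -0.73 and -1.77 at 72 hpa (13 genes, 2 called lower). Leukocyte genes were higher (1.56 and 1.35, 9 genes, 6 called higher) and red blood cell genes lower (-4.80 and -3.39, 12 genes, 11 called lower), while skeletal muscle genes had -1.18 and 1.14 in the 2 replicates (17 genes). No gene of these lists found in the table was at 0 in all libraries. The part of these other cells in the lower values of the neuronal genes was not tested.

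**Figure D5:**
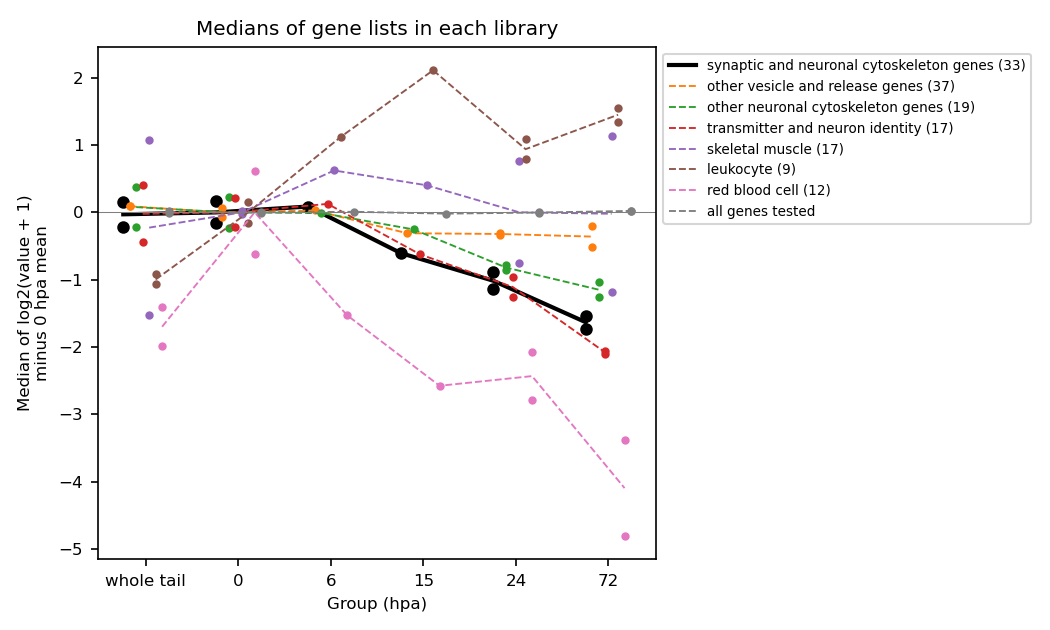
Median over a gene list of log2(normalised reads + 1) minus the 0 hpa mean, by group; points are libraries, lines join group means, and the number of genes tested is in brackets. The neuronal genes reach -1.54 and -1.73 at 72 hpa beside neuron identity genes at -2.10 and -2.06, leukocyte genes lie above 0 from 6 hpa on and all genes tested stay near 0.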

How the data were processed

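Total RNA of 10 libraries was sequenced after TruSeq preparation, per the labels' protocols. As tools, with no role given, the submitters' processing notes list R 3.2.0, DESeq2, HTSeq, SAMtools 1.1, TopHat2 2.0.13 and Trim Galore 0.3.3. Genome build, annotation and strand setting: not given in the sources used here. Coordinates are therefore left out. The deposited values are a normalised signal. Each was a whole multiple of its library's smallest value above 0 (100% at a tolerance of 0.01), so reads could be recovered.

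Because the values are not counts, limma 3.58.1 (R 4.3.3, variance trend, 6 group levels, 4 residual degrees of freedom) was run on log2(value + 1) for the 17896 genes with 10 or more normalised reads in 2 or more libraries. The single libraries at 6 and 15 hpa are assumed to vary like the duplicated groups. edgeR 4.0.16 and DESeq2 1.42.0 on the recovered reads were alternatives, with other scalings, filters, pseudocounts, thinning, fewer libraries and a replicate block. In simulated counts for 24 against 0 hpa (17604 genes, 50 changed per size), only genes averaging over 50 normalised reads were changed. There limma recovered 8%, 64%, 92% and 100% of changes of 1, 2, 3 and 4 log2 units, and 13 of 145 calls were false. Recovery of scarcer genes was not tested. Counts of replicates were further apart than counting error alone gives (chi-square over its degrees of freedom, 87.44 to 197.2).

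Genes and lists were chosen with earlier results of these data known. Named were the called genes, per comparison the largest changes without overlap, the most abundant gene per role, a panel, and up to 5 called genes of the further lists, of which the text gives a part. All 35 symbols are RefSeq gene symbols. Other columns of the authors' deposited table hold cluster and flag, whose test is not stated.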

Additional observations from a re-analysis of the deposited data

Results flagged for a closer look

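SLC18A1 was singled out because its change differed between time points by a test of the difference itself. Its log2 fold change against 0 hpa was -3.06 at 72 hpa and -0.93 at 24 hpa, and the difference between 72 and 24 hpa was -2.13 (SE 0.196, limma adjusted p = 0.025). Both 72 hpa libraries were lower than both 24 hpa libraries. The call does not hold in every fit without 1 replicate, where its adjusted p lay between 0.025 and 0.112.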

How the results depend on the processing

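Counts of called genes kept within 1.5 times of the reported ones under TMM scaling, a filter of 50 normalised reads, pseudocounts of 0.5 and 5, thinning to the shallowest library, the duplicated groups alone and a replicate block, for each comparison these could be fitted to. Without the low-value filter, limma called 1 and 9 of the genes lower at 24 and 72 hpa against 0 hpa, 1 and 9 against the whole tail, and 4 by the F test. edgeR with either scaling called 0 lower between 72 and 24 hpa. DESeq2 called 1 higher at 0 hpa against the whole tail, 2 lower at 15 hpa, 14 lower at 24 hpa, 23 lower and 1 higher at 72 hpa against 0 hpa, 4 lower between 72 and 24 hpa, 14 lower at 24 hpa and 1 higher at 72 hpa against the whole tail, and 27 by its test over all groups. DESeq2 also called more of all genes, for example 7.49% lower at 72 hpa against 0 hpa where limma called 3.53%. For its test over all groups that share is not given here, so the 27 has no background beside it. Leaving out 1 replicate gave 0 to 3 lower at 24 hpa and 7 to 15 at 72 hpa against 0 hpa, 0 to 1 between 72 and 24 hpa, 0 to 2 and 6 to 18 against the whole tail, and 2 to 11 by the F test. The share of all genes called is not given here for the fits without 1 replicate, nor for the F test without the low-value filter. Their counts thus have no background beside them. The cause of these shifts was not tested. No called gene changed direction in any setting. Same-numbered libraries deviated together, with a correlation over 0.1, in 2 of 6 pairs of groups (0.271 for 24 and 0 hpa, 0.136 for 24 hpa and whole tail; lowest -0.135), so the numbers were not taken to pair them; with the replicate block limma called 17 at 72 hpa and 5 at 24 hpa against 0 hpa, 1 between 72 and 24 hpa, 21 at 72 hpa and 4 at 24 hpa against the whole tail, and 15 by the F test. The share of all genes called with the block is not given here, so its counts show only how the calls of these genes depend on it. At 24 hpa against the whole tail the block lost RAB3A and SNAP91 (limma adjusted p = 0.0515 each) and added CPLX2 (0.033), so 3 of the 5 calls were shared. The 6 and 15 hpa libraries carry no replicate number and could not enter it. Depth limited SV2C, with 1 read in 72 hpa replicate 2, and VAMP1 and NLGN1, which were not tested.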

Other observations

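The replicates at 24 hpa differed for PCSK1 (1299 and 209 normalised reads), and several other genes also stood apart there. NEFL had 126 and 19.2, POU4F1.2, a transcription factor of sensory neurons, 122 and 14.4, and PVALB, a calcium buffer of fast muscle, 12867 and 1814. DDC, the decarboxylase that makes serotonin and dopamine, had 3534 and 2041 normalised reads in the 0 hpa libraries, 2210 and 381 in the 24 hpa libraries, and 147 and 153 in the 72 hpa libraries, and fell at 72 hpa against 0 hpa (log2 fold change -4.15, limma adjusted p = 0.023). DDC, POU4F1.2 and PVALB were picked from the marker lists after their values were seen. SLC18A1, whose transporter loads the amines that DDC makes, had 4227 and 3178 at 24 hpa, a smaller gap.

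Among the neuron identity genes 2 rose at 72 hpa against 0 hpa, GAD1.2, an enzyme of GABA synthesis (log2 fold change 3.16, limma adjusted p = 0.032), and RUNX3, a transcription factor of sensory neurons and also of leukocytes (3.01, limma adjusted p = 0.049). GAD1.2 had 22.5 and 7.33 normalised reads in the 0 hpa libraries, 101 in the 6 hpa library and 111 and 139 in the 72 hpa libraries. Both were named after their values were seen.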
